A study of Homo sapiens with 12 samples.

Results

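The genes described here are those of polyamine synthesis and breakdown together with the antizymes and the antizyme inhibitor: AZIN1, OAZ1, OAZ2, ODC1, AMD1, SRM, SMS, SAT1 and SMOX. They were taken by gene symbol from a list drawn up for control by polyamines through upstream reading frames or frameshifting. Such control is described below only for the antizymes, AZIN1 and AMD1. AZIN1 was selected on its measured loss of ribosome density in these same libraries. All 9 had a row among the 15798 genes of the table, and all 9 were among the 10663 genes tested, which had 10 or more counts in 3 or more of the input libraries. The values that chose AZIN1 are therefore given as a description, with no p-value, and nothing is read from a test of them.

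The libraries came from HCT116, an established human colorectal cancer cell line. Cells in dishes were treated for 24 h with 100 nM trametinib, which inhibits the kinases MEK1/2, or with the solvent DMSO alone, in 3 biological replicates each, and every dish, treated or not, was exposed to cycloheximide shortly before lysis. From each dish the fragments of mRNA protected by ribosomes (footprints) were sequenced, and fragmented cytoplasmic RNA of the lysate (input) was sequenced in parallel, so that the 12 libraries make 4 groups of 3. The comparison asks which mRNAs change in abundance, and which change in ribosome density, meaning footprints relative to input, when MEK1/2 is inhibited.

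Polyamines are small positively charged molecules that bind RNA and DNA and are needed for growth and for translation. Cells hold their level through feedback at the ribosome: when polyamines are plentiful, more ribosomes shift frame on the antizyme mRNAs, and antizyme then binds ornithine decarboxylase, carries it to the proteasome and lowers polyamine uptake. The antizyme inhibitor AZIN1, a relative of ornithine decarboxylase without its activity, binds antizyme and so spares the enzyme, and its own mRNA and that of AMD1 carry upstream reading frames through which polyamines lower their translation.

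Sequences through which polyamines act on the ribosome are shown first for the antizymes and AMD1, because the counts described further on sum over them or leave them out. OAZ1 lies on chromosome 19 from 2269509 to 2273490 on the plus strand (GRCh38, Gencode v44) and OAZ2 on chromosome 15 from 64687573 to 64703281 on the minus strand. In both, the annotated reading frame skips 1 base, at position 2271443 in OAZ1 and 64691515 in OAZ2. The capitals mark the last codon read before the shift and the stop codon TGA, whose first base is the one skipped; both stretches are coding, are read 5′ to 3′ on the gene's strand, and come from chr19:2271413-2271472 (plus) and chr15:64691486-64691545 (minus).
OAZ1 frameshift site: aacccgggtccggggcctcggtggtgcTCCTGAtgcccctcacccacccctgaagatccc
OAZ2 frameshift site: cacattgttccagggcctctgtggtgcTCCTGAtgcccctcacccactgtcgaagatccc
The 2 stretches were identical at 49 of 60 bases. The shift comes after 68 codons in OAZ1 and 32 in OAZ2, and 160 and 157 codons follow it. Footprints on both sides of the shift are summed in the deposited counts, so the share of ribosomes that shifted cannot be read from them.

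The upstream reading frame of AMD1 lies at chr6:110874796-110874816 on the plus strand, 11 bases from the start of the transcript, in a leader of 321 bases. Capitals mark its start and stop codons, with 6 codons including the start before the stop.
AMD1 upstream open reading frame: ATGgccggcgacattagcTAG
Footprints on it are not part of the counts, which cover the annotated reading frame only. The upstream reading frame of AZIN1 is not shown, and the same limit applies to it.

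Of the 12 libraries, the input libraries held 2276693 to 2845568 counts and the footprint libraries 10127477 to 19181588, so a change in input was the less precise of the pair, with a median standard error of 0.216 on the log2 scale over all genes tested, against 0.152 for footprints and 0.266 for density. DUSP6, a phosphatase whose transcription follows ERK activity, fell from a mean of 1395 normalized counts in the DMSO input libraries to 6.70 in the trametinib ones, as the treatment labels imply. Of 8 colorectal epithelial markers, EPCAM, CDH1, KRT8, KRT18 and CDX2 were detected in input, while CDX1, VIL1 and CEACAM5 had 0 counts in all input libraries; PTPRC and PECAM1, markers of blood and endothelial cells, had at most 1 count in any, whereas the stromal and muscle markers COL1A1 and ACTA2 had means of 63.1 and 33.5 normalized counts. Their part in the results was not tested. DMSO replicate 1 stood apart: 109 of 7688 genes were more than 2-fold above both other DMSO dishes in both of its libraries, against 0 or 1 gene for every other dish. Its values move the changes of SMOX, SAT1 and some other pathway genes, which are therefore also given without it.

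With trametinib, most of these mRNAs were less abundant and OAZ2 was more abundant. In input, 5 of the 8 genes other than AZIN1 fell (ODC1, AMD1, SRM, SAT1 and SMOX) and 1 rose (OAZ2), while OAZ1 and SMS did not pass the test. Over all genes tested, 16.8% fell and 15.4% rose by the same rule, an adjusted p under 0.05 in edgeR's quasi-likelihood test. The median log2 change of the 8 was −0.72, beside −0.00 over all genes. Without DMSO replicate 1 the call of SAT1 was lost and the other 5 calls held. In these bulk lysates, fewer cells expressing an mRNA and less of that mRNA per cell cannot be told apart. Each value is relative to the other mRNAs of its library, so a change common to all mRNAs would not appear.

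Relative to the other mRNAs of the library, footprints changed for all 8: ODC1, AMD1, SRM, SAT1, SMOX and OAZ1 fell, and OAZ2 and SMS rose. That is 6 lower and 2 higher, where 25.6% of all genes tested were lower and 23.9% higher. The median log2 change of the 8 was −0.57, beside −0.01 over all genes. All 8 calls held without DMSO replicate 1. Footprints were scaled within the assay, so a fall common to all mRNAs would not appear in them. The paper reported, from polysome profiling, that trametinib lowered global translation in this cell line. The rises of OAZ2 and SMS are therefore relative to other mRNAs, and whether their footprints per cell rose was not tested. Treated and control footprint libraries did not overlap for any of the 9 genes, AZIN1 included: 7 were lower in every treated library, as were 29.2% of all genes tested, and 2 were higher, as were 30.4%. Normalized counts below are counts divided by the library's size factor, which makes libraries comparable within a gene but not genes with each other.

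**Figure D1:**
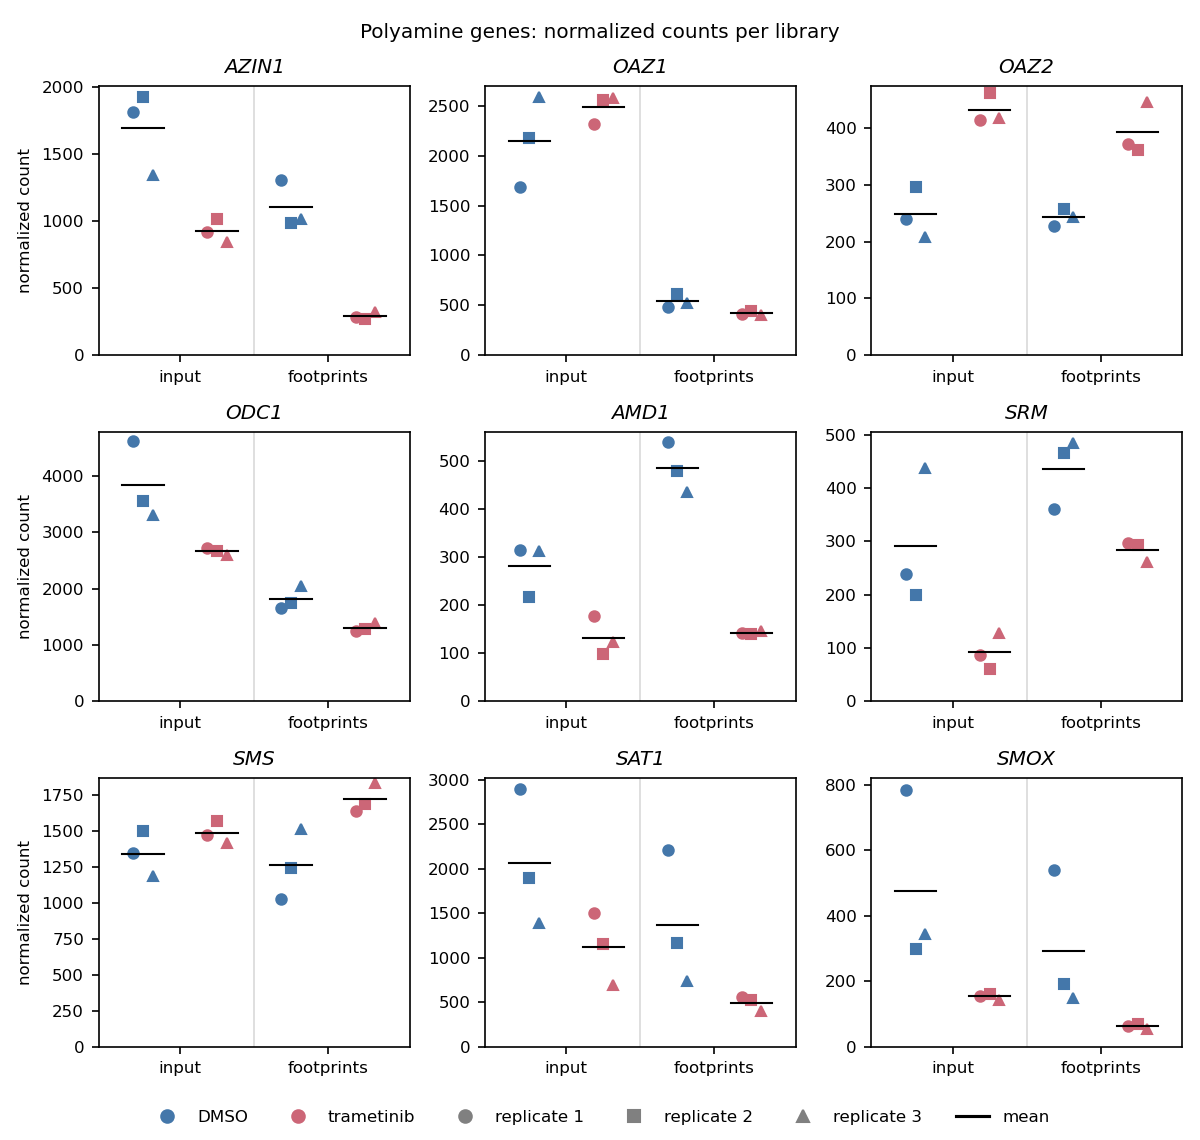
Normalized counts (linear axes from 0) of the 9 genes in each input and footprint library, DMSO in blue and trametinib in red, with a symbol for each replicate and a line at the mean of 3. Footprints of the treated and control dishes do not overlap for any of the 9 genes, and DMSO replicate 1 is the highest point for SMOX and SAT1 in both assays.

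Among the regulators, AZIN1 had the lowest footprints relative to control. Its gene spans 102826111 to 102893864 of chromosome 8 on the minus strand. Its input counts were 1813, 1927 and 1344 in the DMSO dishes and 918, 1017 and 845 in the trametinib dishes. Its footprint counts were 1309, 987 and 1015 with DMSO and 283, 272 and 322 with trametinib. Every treated value lay below every control value in both assays, and the gap was wider in footprints. Input was at 54.7% of control (1695 ± 309 against 926 ± 86.3, SD, n = 3) and footprints at 26.5% (1104 ± 178 against 292 ± 26.4, n = 3), which the fits gave as log2 changes of −0.88 (SE 0.17) and −1.94 (SE 0.14).

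The antizymes went separate ways. OAZ1, the major antizyme, had input counts of 1684, 2174 and 2590 with DMSO and 2321, 2560 and 2578 with trametinib. Its footprint counts were 483, 614 and 523 with DMSO and 415, 439 and 402 with trametinib. Input overlapped between the groups, with a log2 change of 0.20 (SE 0.17, adjusted p = 0.393), whereas the treated footprints all lay below the controls, at 77.6% of their mean. The footprint change was small, −0.38 (SE 0.12, adjusted p = 0.0244), and at −0.21 no longer passed the test when footprints were scaled by library totals (adjusted p = 0.185). It was also lost in 4 of the 6 fits that left out 1 footprint library, at adjusted p-values of up to 0.0890.

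OAZ2, the second antizyme, rose in both assays. Its input counts were 239, 297 and 207 with DMSO and 414, 461 and 418 with trametinib. Footprints were 228, 258 and 243 against 373, 362 and 446. No treated value reached down to a control value, and the rise was of like size in input (log2 change 0.78, SE 0.18, adjusted p = 0.00466) and in footprints (0.68, SE 0.12, adjusted p = 0.00158). It passed the test in both assays under every alternative run.

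Of the synthesis enzymes, ODC1, AMD1 and SRM fell and SMS did not. ODC1, which makes putrescine from ornithine in the rate-limiting step, had input counts of 4617, 3563 and 3315 with DMSO and 2722, 2667 and 2591 with trametinib. Its footprints were 1645, 1746 and 2047 against 1246, 1280 and 1386. The treated dishes were lower in both assays and closer together than the controls, at 69.4% of control in input and 71.9% in footprints. The log2 changes were −0.54 (SE 0.15, adjusted p = 0.0168) and −0.49 (SE 0.12, adjusted p = 0.00765). The input call was lost, at adjusted p-values up to 0.0689, when any 1 trametinib library was left out.

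AMD1 makes the aminopropyl donor, decarboxylated S-adenosylmethionine. It had input counts of 315, 217 and 313 with DMSO and 176, 96.9 and 123 with trametinib. Footprints were 538, 480 and 435 with DMSO and 142, 140 and 146 with trametinib. The treated footprints stood within a few counts of each other and at 29.4% of the control mean, while input was at 46.9%. Of the 8 genes, AMD1 had the smallest adjusted p in footprints (log2 change −1.78, SE 0.12, adjusted p = 6.36e-06), and its input also fell (−1.10, SE 0.24, adjusted p = 0.00400).

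SRM, spermidine synthase, showed the opposite balance. Its input counts were 239, 199 and 438 with DMSO and 85.7, 60.3 and 128 with trametinib. Its footprints were 360, 465 and 485 with DMSO and 297, 294 and 261 with trametinib. Input was at 31.3% of control and footprints at 65.0%, so that the mRNA fell further than its footprints. The log2 changes were −1.69 (SE 0.33, adjusted p = 0.00187) and −0.64 (SE 0.13, adjusted p = 0.00407). The treated input libraries held only 35, 23 and 49 raw counts of SRM, and the control libraries differed among themselves by 2.20 times.

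SMS, spermine synthase, was the synthesis enzyme that did not fall. Its input counts were 1345, 1500 and 1189 with DMSO and 1471, 1569 and 1417 with trametinib, and these overlapped (log2 change 0.13, SE 0.14, adjusted p = 0.521, 95% interval −0.18 to 0.44). Its footprints were 1029, 1245 and 1514 against 1642, 1691 and 1832, all above the controls, for a log2 change of 0.43 (SE 0.14, adjusted p = 0.0354). That call was lost in 4 of the 6 fits that left out 1 footprint library, with log2 changes of 0.31 to 0.59 over the 6.

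Both catabolic enzymes fell, and both were uneven among the control dishes. SAT1 acetylates spermidine and spermine and so opens their export and breakdown. It had input counts of 2901, 1896 and 1387 with DMSO and 1505, 1161 and 698 with trametinib. Its footprints were 2207, 1163 and 741 with DMSO and 556, 522 and 402 with trametinib. The input groups overlapped and the footprint groups did not. The log2 changes were −0.90 (SE 0.28, adjusted p = 0.0280) in input and −1.50 (SE 0.35, adjusted p = 0.00700) in footprints. Without DMSO replicate 1 they were −0.56 (adjusted p = 0.0595) and −0.95 (adjusted p = 0.000350). The input call was lost in 4 of the 6 fits that left out 1 input library.

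SMOX oxidizes spermine back to spermidine. Its input counts were 785, 297 and 344 with DMSO and 154, 162 and 144 with trametinib. Footprints were 540, 191 and 150 with DMSO and 63.8, 69.4 and 54.3 with trametinib. DMSO replicate 1 was 2.45 times the mean of the other two control dishes in input and 3.16 times in footprints, and even the lowest control dish was above every treated dish. The log2 changes were −1.65 (SE 0.32, adjusted p = 0.00200) and −2.26 (SE 0.45, adjusted p = 0.00314). Without DMSO replicate 1 they were −1.07 (adjusted p = 0.000287) and −1.44 (adjusted p = 3.75e-06).

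**Figure D2:**
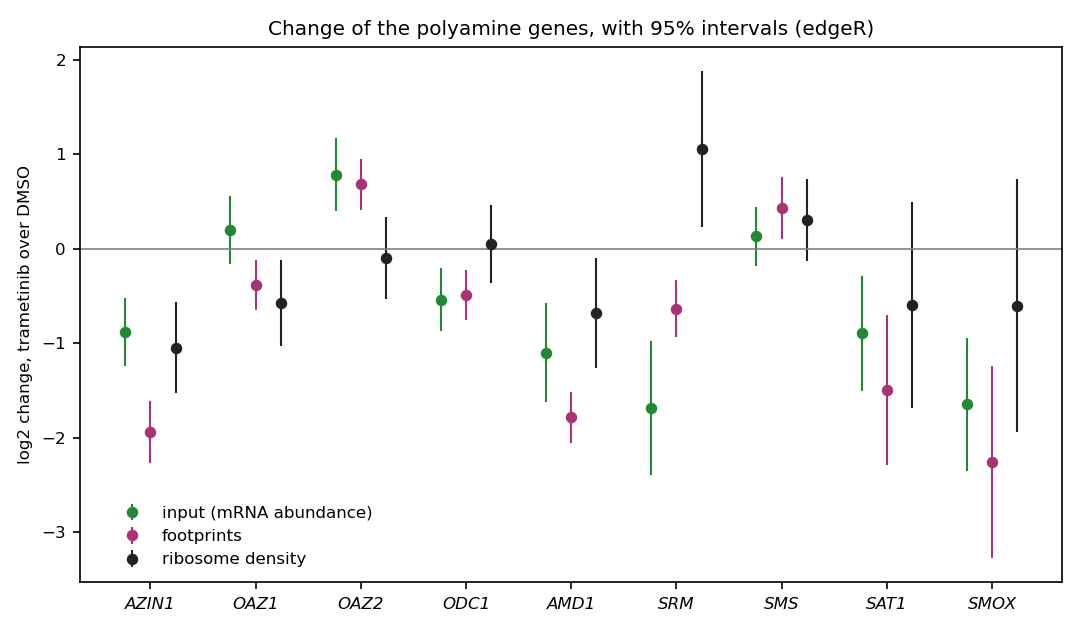
Log2 change, trametinib over DMSO, of each gene in input, in footprints and in ribosome density, as points with 95% intervals from edgeR. AZIN1, AMD1, SAT1 and SMOX lie lower in footprints than in input, SRM lies higher, and OAZ2 and ODC1 have density changes near 0.

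With DMSO, the 9 genes differed in ribosome density, which is footprints relative to input and not the number of ribosomes per mRNA. Density per dish is the log2 ratio of normalized footprints to normalized input, each with a pseudocount of 1, less the median over all genes tested in that dish, so that 0 is the median gene. In DMSO it was highest on AMD1 (0.76 ± 0.32, SD, n = 3, at percentile 80.1 of all genes tested) and SRM (0.61 ± 0.53). OAZ2 (−0.05 ± 0.23) and SMS (−0.14 ± 0.40) lay near the median gene. AZIN1 (−0.65 ± 0.32), SAT1 (−0.70 ± 0.26), SMOX (−0.82 ± 0.35) and ODC1 (−1.11 ± 0.40) lay below it. OAZ1 was lowest, at −2.01 ± 0.28 and percentile 3.70, although its sister OAZ2, with the similar shift site shown above, lay at percentile 47.9. Neighbours in this order overlapped over the 3 dishes except SMS with AZIN1 and ODC1 with OAZ1. Since density is set against the median gene of each dish, a change common to all genes would not appear in it.

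With trametinib, density on AZIN1 fell from −0.50, −1.02 and −0.43 in the DMSO dishes to −1.71, −1.92 and −1.39. Every treated dish was lower than every control dish, and AZIN1 moved from percentile 26.1 to percentile 6.81. The change in the model over all 12 libraries was −1.05 (SE 0.22, 95% interval −1.52 to −0.57), the 154th lowest of the 10663 genes. AZIN1 was 1 of the 9 genes called in density, beside 1.05% of all genes in either direction, 1.00% called lower and 0.0469% called higher. The choice of genes used this contrast, so nothing is read from that count, from the call of AZIN1 or from its stability. The call of AZIN1 was lost with TMM scaling, with library totals and in all 6 fits that left out 1 trametinib library, with estimates of −0.87 to −1.11 in those 8 fits.

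Of the antizyme mRNAs, OAZ1 had the lower density in every treated dish and the OAZ2 values overlapped. Density on OAZ1 went from −1.83, −1.87 and −2.33 to −2.49, −2.56 and −2.68, with no overlap, and its change was −0.57 (SE 0.21, 95% interval −1.03 to −0.12). OAZ2 went from −0.10, −0.26 and 0.20 to −0.17, −0.37 and 0.09, with a change of −0.10 (95% interval −0.53 to 0.33). The intervals here are those of single genes, unadjusted for the number of genes.

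Among the enzymes, SRM and AMD1 had density estimates of opposite sign, neither of them called. Density on SRM was 0.56, 1.17 and 0.12 with DMSO and 1.77, 2.25 and 1.01 with trametinib, a change of 1.05 (SE 0.38, 95% interval 0.23 to 1.88) at percentile 99.7 of all changes. The groups overlapped, since DMSO replicate 2 lay above trametinib replicate 3. Density on AMD1 was 0.74, 1.09 and 0.44 with DMSO and −0.33, 0.50 and 0.24 with trametinib, with overlap and a change of −0.68 (SE 0.27, 95% interval −1.26 to −0.10).

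ODC1, the target of the antizymes, kept density values of −1.52, −1.08 and −0.72 with DMSO and −1.14, −1.08 and −0.91 with trametinib. These overlapped, and its change was 0.05 (95% interval −0.36 to 0.47). SMS changed by 0.30 (95% interval −0.13 to 0.74). The estimates for SAT1 and SMOX were both −0.60, with intervals of −1.69 to 0.49 and −1.94 to 0.74. Density on SMOX was −0.57, −0.68 and −1.22 with DMSO and −1.27, −1.23 and −1.39 with trametinib. These did not overlap, but only narrowly, with the lowest control dish at −1.22 and the highest treated dish at −1.23. AZIN1 and OAZ1 were also lower in every treated dish, as were 8.23% of all genes tested. None of the 9 was higher in every treated dish, beside 9.06% of all genes. Density on SAT1 overlapped. Without DMSO replicate 1 in both assays the estimates were −0.40 for SAT1 and −0.38 for SMOX, and without its footprint library alone −0.06 and 0.20. With input and footprints of a dish kept as a block they were −0.48 (95% interval −0.88 to −0.08) and −0.52 (95% interval −0.99 to −0.05), and neither was called.

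**Figure D3:**
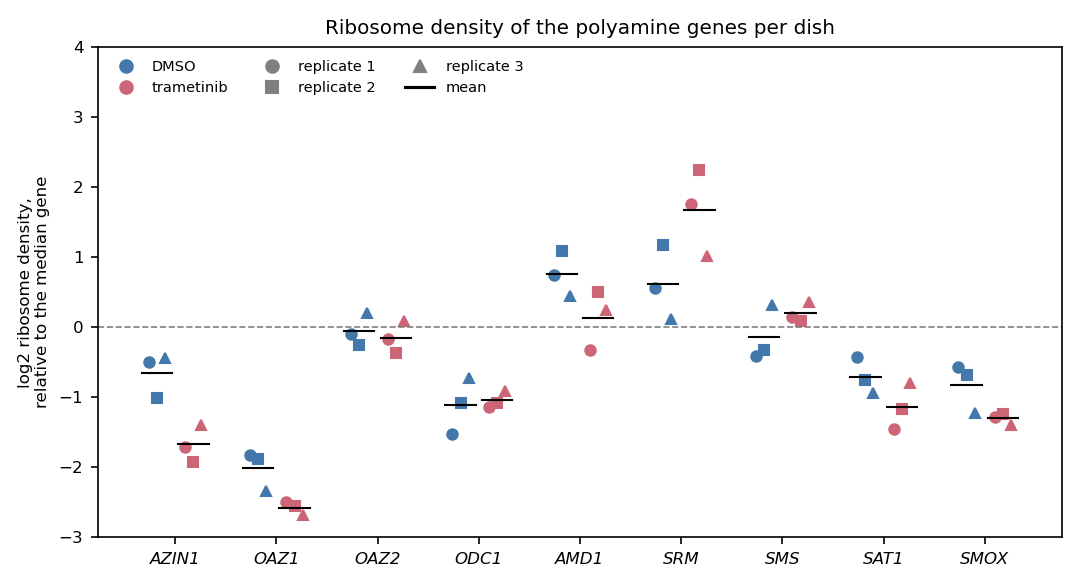
Ribosome density of each gene per dish, as the log2 ratio of footprints to input relative to the median gene of that dish (dashed line at 0), with a line at the mean of 3 dishes. AZIN1, OAZ1 and SMOX lie lower in every trametinib dish, SMOX only narrowly (lowest control −1.22, highest treated −1.23). SRM has the highest treated values at 1.01 to 2.25, and ODC1 and OAZ2 overlap.

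**Figure D4:**
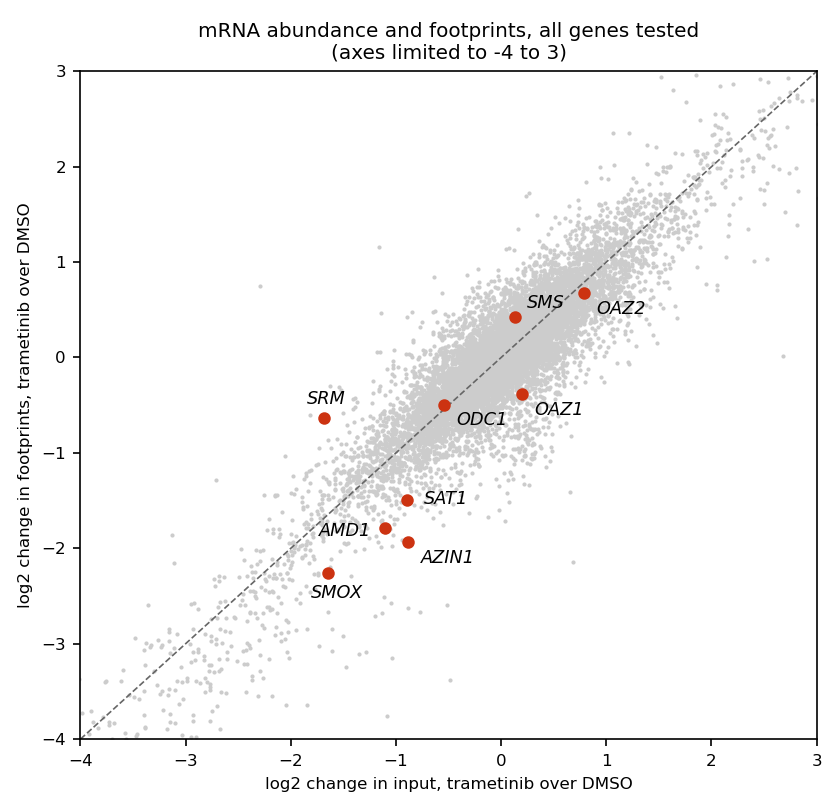
Log2 change in footprints against log2 change in input for all genes tested (grey) and the 9 polyamine genes (red), with a dashed line of equal change (a few genes lie beyond the axes). AZIN1, AMD1, SMOX, SAT1 and OAZ1 lie below the line, SRM lies above it, and ODC1 lies on it.

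The ratio of antizyme mRNA counts to AZIN1 counts was higher in every treated dish. Footprints per kb of coding length of OAZ1 and OAZ2 together, divided by those of AZIN1 in the same library, were 1.13, 1.84 and 1.57 with DMSO and 5.98, 6.32 and 5.72 with trametinib. In input the same ratio was 2.13, 2.58 and 4.14 with DMSO and 6.02, 6.01 and 7.16 with trametinib. The groups did not overlap in either assay, and since both terms come from 1 library the ratio does not depend on scaling between libraries. The means were 1.51 ± 0.355 against 6.01 ± 0.298 in footprints and 2.95 ± 1.06 against 6.40 ± 0.659 in input (SD, n = 3). AZIN1, selected on its density loss, is in the denominator, so these ratios are descriptions and were not tested. Footprints on OAZ1 and OAZ2 include ribosomes that had not shifted frame, so the ratios do not give antizyme protein.

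Relative to ODC1 itself the antizyme mRNA counts changed less. The ratio of OAZ1 plus OAZ2 to ODC1 in footprints per kb was 0.933 ± 0.132 with DMSO and 1.38 ± 0.0153 with trametinib. ODC1 to AZIN1, the enzyme over its inactive relative, went from 1.63 ± 0.376 to 4.34 ± 0.207 in footprints and from 2.22 ± 0.371 to 2.80 ± 0.226 in input. OAZ2 had 0.545 ± 0.0336 of the footprints per kb of OAZ1 with DMSO and 1.14 ± 0.178 with trametinib. SMS over SRM, the makers of spermine and spermidine, went from 2.38 ± 0.185 to 5.04 ± 0.662 in footprints.

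**Figure D5:**
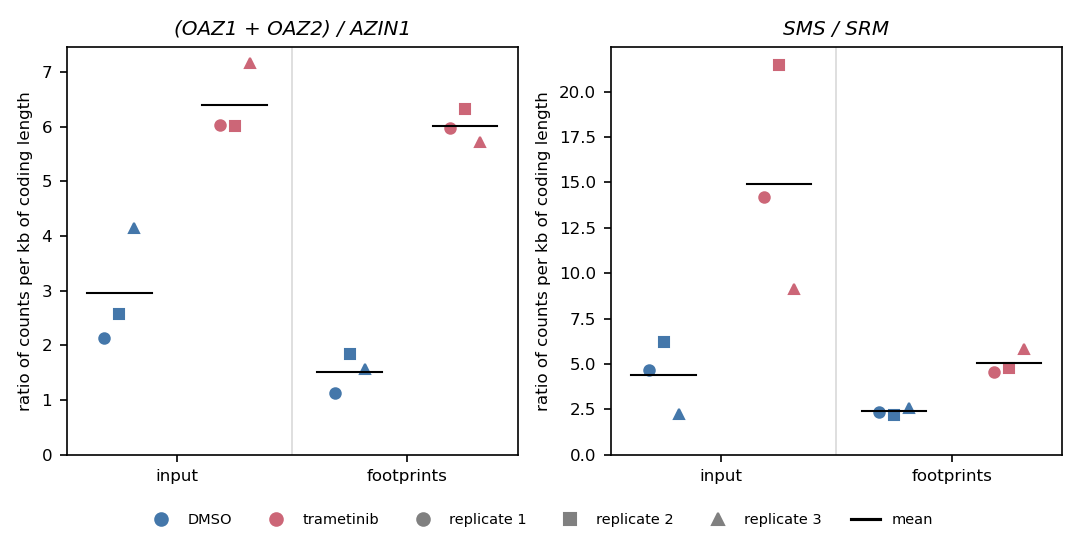
Ratios of counts per kb of coding length within each library, for OAZ1 plus OAZ2 over AZIN1 (left) and SMS over SRM (right), with a line at the mean of 3 dishes. OAZ1 plus OAZ2 over AZIN1 is 1.13 to 1.84 in DMSO footprints and 5.72 to 6.32 in trametinib footprints. SMS over SRM is also higher in every treated dish.

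Compared per kb of coding length, the order of the footprint levels also differed between the treatments. With DMSO, SAT1 came first at 2656 ± 1463 normalized footprints per kb (SD, n = 3), followed by ODC1 (1308 ± 151), SMS (1147 ± 221), AZIN1 (820 ± 132) and OAZ1 (786 ± 97.7), each of which overlapped with its neighbour. AMD1 (482 ± 51.6), SRM (481 ± 73.6) and OAZ2 (426 ± 26.5) overlapped with each other and lay below OAZ1, and SMOX was lowest at 176 ± 128. With trametinib, SMS was first at 1564 ± 89.7, above SAT1 (956 ± 156) and ODC1 (941 ± 52.5), which overlapped. OAZ2 (690 ± 80.5) and OAZ1 (610 ± 27.2) came next and overlapped, then SRM (312 ± 21.9), AZIN1 (217 ± 19.6), AMD1 (142 ± 3.33) and SMOX (37.5 ± 4.57) without overlap between neighbours. AZIN1 thus went from the fourth place to the seventh and OAZ2 from the eighth to the fourth.

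The genes whose profile over the 12 libraries lay nearest to that of AZIN1 were SRSF7, IGF2BP3, TSC22D1, PAK1IP1 and EZH2. Likeness was the Euclidean distance between log2 normalized counts, centred within each assay, among 6817 genes with a mean of at least 100 in both assays. These 5 lay at distances of 0.693 to 0.790, beside a median of 2.71. Their changes were −1.02 to −1.35 in input, −1.55 to −1.93 in footprints and −0.34 to −0.76 in density. AZIN1 was selected on its density loss, so nothing is read from its larger estimate.

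Promoters of ODC1 and SRM are long known to hold E-boxes, the motif CACGTG that MYC and related factors bind. Of the 7 genes with a promoter window, ODC1 and SRM fell in input, and so did AMD1 and SAT1, whose windows lack the motif. The windows of OAZ1, OAZ2 and SMS lack it too. OAZ2 rose in input, and OAZ1 and SMS did not pass the test. A link between the motif and the changes was not tested. Promoter windows of 300 bases from RefSeq (GRCh38.p14), from 250 bases before to 50 after a start site, were given for 7 of the 9 genes. The motif was present in the window of SRM and in 1 of the 2 windows of ODC1, and in none of those of OAZ1, OAZ2, AMD1, SMS and SAT1. It reads the same on both strands, and 7.26% of all 35116 windows held it. The sites are shown with the motif in capitals, from chr1:11060200-11060229, chr2:10448024-10448053 and chr2:10447990-10448019, all on the minus strand. They lie at −199, −29 and 5 bases from the start site of their window. The Gencode span of ODC1 begins upstream of both ODC1 sites, at 10448327, so these offsets are from a start site within the gene.
SRM promoter: ccggccgggcccCACGTGgcccctggagcg
ODC1 promoter, first site: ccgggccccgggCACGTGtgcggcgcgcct
ODC1 promoter, second site: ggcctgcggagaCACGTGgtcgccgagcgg
A match describes the letters only, and binding was not measured.

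Around these 9 genes, 35 further genes of the pathway were listed by role and 23 of them were tested. In input, 3 rose and 6 fell, beside 15.4% and 16.8% of all genes tested, and in footprints 3 rose and 8 fell, beside 23.9% and 25.6%. In density 1 fell, beside 1.00%. The number that rose in footprints was 6 with library totals and 1 in 4 of the 6 fits that left out 1 footprint library. Without DMSO replicate 1 in both assays, 3 rose and 7 fell in input, and 4 rose and 10 fell in footprints. Their median log2 change was −0.18 in input and 0.05 in footprints, beside −0.00 and −0.01 over all genes.

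The methionine cycle and salvage genes supply the S-adenosylmethionine that AMD1 uses, and 8 of 9 were tested. MAT2A, which makes S-adenosylmethionine, fell by 0.79 in input (adjusted p = 0.00213) and by 0.75 in footprints (adjusted p = 0.00114), whereas its regulatory partner MAT2B rose, by 0.92 (adjusted p = 0.00537) and 0.74 (adjusted p = 0.00163). The salvage enzymes ENOPH1 and APIP fell in both assays, ENOPH1 by 1.18 and 0.99 (adjusted p = 0.000176 and 0.000573), APIP by 0.59 and 0.36 (adjusted p = 0.0400 and 0.0206). AHCY, which clears S-adenosylhomocysteine, fell by 1.07 in footprints (adjusted p = 0.000306) with an input change of −0.22 (adjusted p = 0.233). Its density change of −0.84 (SE 0.18, adjusted p = 0.0407) was the call in density among the 23, and it was lost under TMM scaling, library totals and 10 of the 12 fits that left out 1 library.

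Transport and the use of spermidine also held genes that fell. SLC3A2, a transporter chain linked to polyamine exchange, fell by 2.14 in input (adjusted p = 0.000455) and by 2.32 in footprints (adjusted p = 0.00170), with DMSO replicate 1 at 2.86 and 2.79 times the mean of the other control dishes; without that dish it fell by 1.44 and 1.63. ATP13A2, a lysosomal polyamine exporter, fell by 0.87 and 0.86 (adjusted p = 0.0102 and 0.00290). EIF5A, the translation factor that spermidine modifies to hypusine, fell by 0.73 and 1.23 (adjusted p = 0.00210 and 0.000236). EIF5A has near-identical copies elsewhere in the genome, so its level is uncertain. DOHH, the second enzyme of that modification, fell by 0.56 in footprints (adjusted p = 0.00781), with an input change of −0.68 (adjusted p = 0.142). Without DMSO replicate 1 the input change of DOHH was −0.88 and narrowly passed the test (adjusted p = 0.0494).

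Of the regulators and suppliers outside the 9, AZIN2, the second antizyme inhibitor, rose, by 0.96 in input (adjusted p = 0.0434) and 0.58 in footprints (adjusted p = 0.0436). Input held few raw counts of AZIN2, 16, 15 and 17 with DMSO and 22, 20 and 40 with trametinib, the highest in trametinib replicate 3. Without DMSO replicate 1 the input change of AZIN2 was 0.94 (adjusted p = 0.0578). SAT2, a relative of SAT1, rose by 0.48 in footprints (adjusted p = 0.0288), with an input change of 0.43 (adjusted p = 0.100). Without that dish the input change of SAT2 was 0.55 and narrowly passed the test (adjusted p = 0.0483). ASS1, which takes part in arginine synthesis, rose by 1.07 in input (adjusted p = 0.00670), with a footprint change of 0.77 (adjusted p = 0.0911). DMSO replicate 1 was at 2.14 and 2.56 times the mean of the other control dishes for ASS1, and without it the changes were 1.54 and 1.40, the latter then passing the test (adjusted p = 6.06e-07). In ornithine and arginine supply it was the 1 call among 5 genes tested in input, and none of the 5 was called in footprints by edgeR, where 1 of 5 had an unadjusted p under 0.05.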

How the data were processed

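Ribosome footprints and input RNA of HCT116 cells were measured in 12 libraries, 3 per group. The authors mapped reads with Bowtie 1.2.2 (submitters' processing notes) and deposited raw counts per gene over annotated reading frames. The deposited normalized counts, a signal equal to counts divided by DESeq2 1.46.0 size factors, were recomputed from the counts. Columns of the authors' own comparisons (fold changes, p-values and flags) were not used, and the table held 0 unused columns of single libraries.

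Counts were tested in edgeR 4.0.16 (R 4.3.3) by the quasi-likelihood test, with treatment as the term and TMM scaling within an assay, and, for density, the assay by treatment interaction over 12 libraries with median-of-ratios factors. A minimum of 10 counts in any 3 of the input libraries left 10663 of 15798 genes. p-values were adjusted over all genes tested by Benjamini-Hochberg, at a threshold of 0.05. They measure the spread between 3 replicates per group. In the main density fit, the input and footprint libraries of a dish were treated as independent. Scripts were tested on simulated data. Levels between genes were compared per kb of coding length (Gencode v44); the authors' annotation was a different release.

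The 9 genes and all lists were chosen with earlier results of these data known. Named beside them were list genes called in any comparison, DUSP6, and the 5 nearest profiles to AZIN1. Alternatives were other scalings, no filter or a filter on either assay, DESeq2 1.42.0, limma 3.58.1 with a prior count of 2, replicate blocks, and each library left out; leaving out DMSO replicate 1 from both assays was added after its SMOX and SAT1 values were seen.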

Additional observations from a re-analysis of the deposited data

How the results depend on the processing

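With all libraries kept, every alternative kept the calls in input and footprints of the 8 genes other than AZIN1, except that OAZ1 footprints lost theirs with library totals. The number lower in input was 5 and ranged from 3 to 5 when 1 library was left out, the number higher in footprints was 2 and ranged from 1 to 2, and the number lower in density was 1 and ranged from 0 to 1; it was 0 with TMM scaling and 0 with library totals. The lost calls were those of ODC1 and SAT1 in input, OAZ1 and SMS in footprints and AZIN1 in density. AZIN1 was selected on its density loss, so its density call, kept or lost, is not read as a test. Density estimates that changed sign were those of OAZ2, ODC1 and SMOX. OAZ2 was 0.0768 with library totals and ranged from −0.26 to 0.0046 with 1 library left out. ODC1 ranged from −0.11 to 0.15 and was −0.17 without DMSO replicate 1 in both assays. SMOX ranged from −1.18 to 0.20; 0.20 came from the fit lacking DMSO replicate 1 in footprints. The cause of these shifts was not tested. Library totals moved the median of all genes by 0.18 in footprints and by 0.18 in density, and turned 2545 higher and 2727 lower footprint calls into 3570 and 1951, and 5 higher and 107 lower density calls into 27 and 78; DESeq2 gave 35 and 151 in density. Input and footprints came from the same lysates, a pairing that the main density fit did not use. The median standard error of density was 0.266 in that fit and 0.226 with the dish as a block. Equal replicate numbers were not shown to pair dishes across treatments. The correlations of deviations from group means were 0.0485 to 0.333 between treatments and −0.121 to 0.815 within a dish. With a replicate block by number or by dish, AZIN1 density was −1.04 and −1.05, and no call of the 9 genes changed. The blocks gave 8 higher and 107 lower density calls by number, and 19 and 144 by dish.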
